A study of Mus musculus with 7 samples.

Results

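Megakaryocyte and platelet genes were followed in hematopoietic stem cells (HSCs) of mice with and without a deletion of Cebpa. The set held 9 genes, namely Vwf, Itga2b, Itgb3, Pf4, Gp1bb, Gp9, Pear1, Plek and Tmem40, grouped as megakaryocyte and platelet genes. It was chosen with earlier results of these data known. A gene was measured by a probe set annotated to that gene alone. 8 of the 9 genes had such a probe set, 1 each, among the 19938 genes measured in all. The probe set of Gp1bb was also annotated to Septin5, so Gp1bb was given no value.

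HSCs were sorted from bone marrow as lineage-negative, Sca1+, c-Kit+, CD150+ and CD48- cells and profiled on Affymetrix Mouse Gene ST arrays. All mice were female C57BL/6 animals that carried 2 loxP-flanked Cebpa alleles. The 3 control mice had the genotype Cebpa flox/flox and are called Cebpa fl/fl. The 4 others also carried the Mx1Cre transgene (Cebpa flox/flox;Mx1Cre) and are called Cebpa Δ/Δ. Both genotypes received 3 injections of pIpC at 10 to 12 weeks of age, and HSCs were taken on day 18. Mx1Cre is driven by an interferon-inducible promoter and pIpC induces interferon, so the deletion is not limited to HSCs. Both genotypes share the exposure to pIpC, and a control with Mx1Cre but without floxed alleles was not analysed here. The series' design counts as many mice as there are arrays, whereas the labels speak of triplicates for each genotype, and 1 array per mouse was assumed. The p-values measure the spread between these arrays, which is partly technical.

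Platelets are shed by megakaryocytes, which derive from HSCs through progenitors shared in part with the erythroid lineage, and some HSCs already express platelet genes. Von Willebrand factor and platelet factor 4 are cargo of platelet alpha granules. Integrin αIIbβ3 binds fibrinogen and the glycoprotein Ib-IX-V complex binds von Willebrand factor at the platelet surface. A subset of HSCs marked by Vwf is known to be biased towards platelet production. C/EBPα, the product of Cebpa, is a transcription factor best known for its requirement in granulocyte development, and the comparison asked how HSC gene expression differs once it is deleted.

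The values are log2 intensities after Robust Multichip Average (RMA), and differences are given as Cebpa Δ/Δ minus Cebpa fl/fl. Levels of different genes are not compared, because probe sets differ in brightness. The targeted gene itself was lower, with Cebpa at 5.54, 5.75 and 5.63 in the control arrays 1 to 3 and at 5.11, 5.24, 5.27 and 5.27 in the deleted arrays 1 to 4. Its log2 difference was -0.41 (SE 0.07, exact permutation p = 0.0286, limma adjusted p = 0.337). This was 1.33-fold, under the study's threshold of 1.5-fold, so Cebpa itself was not called. Its level lay at percentile 42.8 of all genes, below their median of 5.86. From PCR of bone marrow and spleen, the paper reports that recombination of the floxed gene was complete. How much Cebpa RNA remained in the HSCs was not tested. The arrays had median intensities between 46.2 and 50.4, and the mean correlation of an array with the others lay between 0.979 (Cebpa fl/fl 1 and Cebpa Δ/Δ 3) and 0.985. Erythroid marker genes were higher in the Cebpa Δ/Δ arrays (11 of 11 measured genes called) and genes of mature neutrophils were lower (10 of 14 called). Cd48, whose product the gate excluded, was higher by 2.75 on the log2 scale. A gene is "called" here at the study's thresholds, an unadjusted limma p under 0.05 together with a change over 1.5-fold (0.585 on the log2 scale).

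Of the 8 measured genes, Plek was higher in Cebpa Δ/Δ HSCs, Pear1 and Tmem40 were lower at the edge of the fold threshold, and the other 5 were not called. The count was 1 of 8 called higher, where 1.57% of all 19938 genes were called higher, and 2 of 8 called lower, where 0.617% of all genes were called lower. Because the genes were chosen with earlier results of these data known, these counts are a description and not a test of the set. After Benjamini-Hochberg adjustment over all genes, 0 of the 8 passed, and 0 of all genes did. At an unadjusted p under 0.05 limma found 877 genes higher and 615 lower. The 8 differences had a median of -0.05, with 3 above and 5 below 0, beside a median of 0.00 over all genes. The arrays of the genotypes did not overlap for 2 of the 8 genes in the higher direction, Plek and Gp9 (3.51% of all genes), and for 1 in the lower direction, Pear1 (2.46% of all genes). In bulk RNA from sorted cells, a change in the number of cells that express a gene and a change in RNA per cell cannot be told apart.

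**Figure D1:**
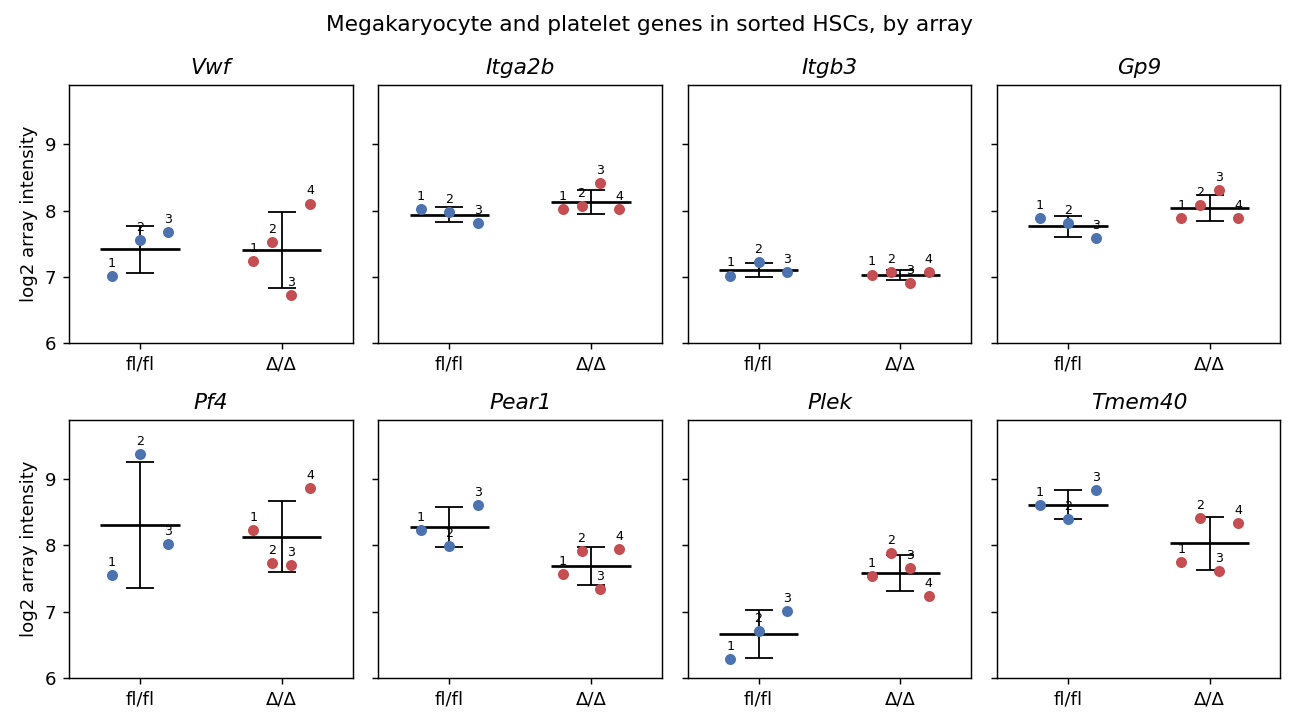
Log2 intensity (RMA) of the 8 measured genes in each array, with Cebpa fl/fl arrays 1 to 3 and Cebpa Δ/Δ arrays 1 to 4 marked by their number and the mean ± SD of each genotype drawn as a long line with error bars. Plek lies higher in each Cebpa Δ/Δ array than in any Cebpa fl/fl array, Pear1 lies lower in each, and Vwf and Pf4 spread widely within both genotypes.

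Plek encodes pleckstrin, a major substrate of protein kinase C in platelets that is also present in leukocytes. Its log2 intensity (probe set 10384458) was 6.29, 6.70 and 7.0 in Cebpa fl/fl, against 7.54, 7.89, 7.66 and 7.23 in Cebpa Δ/Δ, in the order of the replicate numbers that is kept for all genes that follow. Every Cebpa Δ/Δ array was above every Cebpa fl/fl array. The means were 6.66 ± 0.36 (SD, n = 3) and 7.58 ± 0.28 (SD, n = 4), a log2 difference of 0.92 with a 95% interval of 0.41 to 1.43. This was 1.89-fold, with a limma adjusted p of 0.483 and an exact permutation p of 0.0286, the smallest that 35 splits of 7 arrays can give. Plek was called higher under each of the 17 alternatives run, with differences from 0.70, without the least correlated arrays Cebpa fl/fl 1 and Cebpa Δ/Δ 3, to 1.09. Some alternatives, such as the probe set rule, the filter and the floor, could not move its difference of 0.92. Macrophage marker genes were also higher in the Cebpa Δ/Δ arrays, with 5 of 11 called. The summed linear intensity of that list was 416 to 546.5 in Cebpa fl/fl and 1336, 667, 1105 and 790 in Cebpa Δ/Δ 1 to 4. Plek was highest in Cebpa Δ/Δ 2, the Cebpa Δ/Δ array with the lowest macrophage sum. Of the defining macrophage markers, C1qb differed by 1.81 (SE 0.41) and C1qa by 0.96 (SE 0.40). The part of macrophage transcripts in the Plek difference was not tested.

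Pear1 encodes platelet endothelial aggregation receptor 1, a transmembrane protein of platelets and endothelial cells. Its log2 intensity (probe set 10499216) was 8.23, 7.99 and 8.60 in Cebpa fl/fl and 7.57, 7.91, 7.34 and 7.95 in Cebpa Δ/Δ. The genotypes did not overlap, though Cebpa Δ/Δ 2 and 4 lay just under Cebpa fl/fl 2. The log2 difference was -0.59 (SE 0.20, 95% interval -1.07 to -0.10, 1.5-fold), with a limma adjusted p of 0.663 and an exact permutation p of 0.0571.

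Tmem40 encodes a transmembrane protein whose function is little known. It measured 8.61, 8.40 and 8.83 in Cebpa fl/fl and 7.75, 8.41, 7.62 and 8.34 in Cebpa Δ/Δ (probe set 10547056). Here the genotypes overlapped, since Cebpa Δ/Δ 2 was above Cebpa fl/fl 2. The log2 difference was again -0.59 (SE 0.23, 95% interval -1.15 to -0.02, 1.5-fold), with a limma adjusted p of 0.663 and an exact permutation p of 0.143. Cebpa Δ/Δ 1 and 3 were the lowest arrays for Tmem40 and for Pear1.

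Both lower calls depended on single arrays and on the fit. With the replicate number as a block the differences were larger, -0.67 for Pear1 and -0.69 for Tmem40, but neither was called. Only Cebpa Δ/Δ has a replicate 4, so these equal the differences without Cebpa Δ/Δ 4, where both genes were called. With array weights the differences were -0.56 for Pear1 and -0.55 for Tmem40, and neither was called. Without Cebpa fl/fl 1, Cebpa fl/fl 3, Cebpa Δ/Δ 1 or Cebpa Δ/Δ 3, neither gene was called, with log2 differences of -0.61, -0.42, -0.54 and -0.47 for Pear1 and of -0.59, -0.48, -0.49 and -0.45 for Tmem40. Without both Cebpa fl/fl 1 and Cebpa Δ/Δ 3 they were -0.49 for Pear1 and -0.45 for Tmem40. Endothelial markers, which matter for Pear1, were mixed, with 1 of 12 called lower and 0 higher. The called gene was Tie1 (-0.79, SE 0.21), named after its value was seen. The summed endothelial intensity was 1762 to 2328 in Cebpa fl/fl and 1601, 2074, 1301 and 1922 in Cebpa Δ/Δ 1 to 4. Cdh5, a defining endothelial gene, differed by 0.18 and Kdr, the other, by -0.24, both below the median level of all genes. Bright probe sets weigh most in the endothelial sum, so Cdh5 and Kdr add little to it. Their mean log2 intensities in Cebpa fl/fl were 4.54 and 4.85, against 8.82 for Tie1. The part of endothelial transcripts in the Pear1 difference was not tested.

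**Figure D2:**
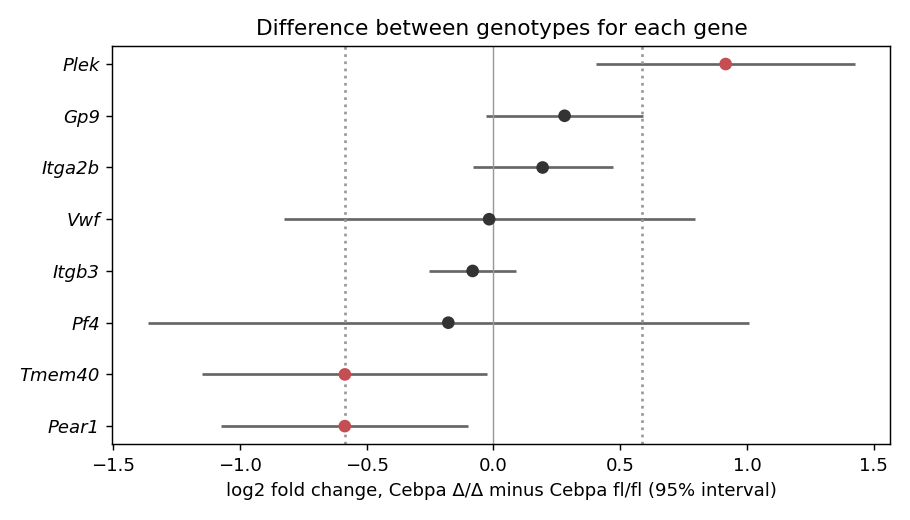
Log2 fold change of each measured gene, Cebpa Δ/Δ minus Cebpa fl/fl, as a point with its 95% interval from limma over 7 arrays, and dotted lines at the 1.5-fold threshold. The interval of Plek lies above 0. Those of Pear1 (-1.07 to -0.10) and Tmem40 (-1.15 to -0.02) lie below 0, with upper ends close to it. Those of the other 5 genes include 0, with Pf4 (-1.36 to 1.01) and Vwf (-0.83 to 0.79) the widest.

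Among the 8 genes, the granule genes Vwf and Pf4 varied most between arrays of a genotype. Vwf encodes von Willebrand factor, which platelets and endothelial cells store and release. It measured 7.01, 7.56 and 7.68 in Cebpa fl/fl and 7.24, 7.53, 6.72 and 8.11 in Cebpa Δ/Δ (probe set 10541910). The Cebpa Δ/Δ arrays held both the lowest and the highest value. The log2 difference was -0.02 (SE 0.34, exact permutation p = 0.971), and its 95% interval of -0.83 to 0.79 includes changes of more than 1.5-fold in either direction. The spread of Vwf within genotypes, an SD of 0.50, was above that of 96.6% of all genes, whose median was 0.155.

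Pf4 encodes platelet factor 4, a chemokine of alpha granules. It measured 7.54, 9.37 and 8.01 in Cebpa fl/fl and 8.23, 7.74, 7.70 and 8.86 in Cebpa Δ/Δ (probe set 10523134). The genotypes overlapped, with the lowest value in Cebpa fl/fl 1 and the highest in Cebpa fl/fl 2. The log2 difference was -0.18 (SE 0.49, exact permutation p = 0.743), and the spread within genotypes was larger than for 99.1% of all genes (SD 0.73). Without Cebpa fl/fl 2 the difference was 0.35. At this spread a change of 1.5-fold in Vwf or Pf4 was not detectable with 7 arrays.

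The adhesion receptor genes had a smaller spread. Itga2b encodes integrin αIIb (CD41), found on megakaryocytes, platelets and some HSCs. It measured 8.02, 7.98 and 7.81 in Cebpa fl/fl and 8.02, 8.07, 8.41 and 8.02 in Cebpa Δ/Δ (probe set 10391697). Cebpa Δ/Δ 3 stood above the other 6 arrays, which overlapped. The log2 difference of 0.19 (SE 0.11, 95% interval -0.08 to 0.47) had an exact permutation p of 0.171. Itgb3, the β3 subunit that pairs with αIIb, measured 7.02, 7.22 and 7.08 in Cebpa fl/fl and 7.03, 7.08, 6.91 and 7.08 in Cebpa Δ/Δ (probe set 10381809). These arrays overlapped, and the log2 difference was -0.08 (SE 0.07, 95% interval -0.25 to 0.09, exact permutation p = 0.457). For both integrin genes the interval lay within the 1.5-fold threshold. Both also held exact ties between arrays, and the effect of ties on the spread and the intervals was not tested.

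Gp9 encodes glycoprotein IX, a subunit of the von Willebrand factor receptor. It measured 7.88, 7.81 and 7.59 in Cebpa fl/fl and 7.89, 8.08, 8.31 and 7.89 in Cebpa Δ/Δ (probe set 10539818). The arrays did not overlap, although Cebpa fl/fl 1 and the lowest Cebpa Δ/Δ arrays were nearly equal. The log2 difference of 0.28 (SE 0.13, 95% interval -0.03 to 0.59) had a limma adjusted p of 0.679 and an exact permutation p of 0.114, and Gp9 was not called. Gp5, glycoprotein V of the same complex, differed by 0.42 (SE 0.25) and was not called either, while Gp1ba was not analysed here. Exact ties between arrays were common in the deposited values. Itga2b and Itgb3 each held 5 distinct values over 7 arrays and Gp9 held 6, and 63.6% of all genes had at least 1 tie.

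The start regions are shown to place them beside the binding letters of factors that act in megakaryocytes. RefSeq sequences of GRCm38.p6 were given for 7 of the 9 genes, in windows from 250 bases before to 50 bases after a transcription start. Vwf and Itgb3 were not among them. The windows of the 3 called genes are printed, Tmem40 with 2 starts, followed by Pf4, Gp9 and Itga2b, the measured genes with a window that were not called. They are Plek at chr11:17008669-17008968 on the minus strand, Pear1 at chr3:87768904-87769203 (minus), Tmem40 at chr6:115762417-115762716 and chr6:115758950-115759249 (both minus), Pf4 at chr5:90772185-90772484 (plus), Gp9 at chr6:87777820-87778119 (plus) and Itga2b at chr11:102469834-102470133 (minus). Each runs 5′ to 3′ along the gene, and capitals mark matches on either strand to the letters GATAA (GATA factors), GGAAG (ETS factors), TGTGGT (RUNX factors) or TTNCNNAA (C/EBP factors).
Plek: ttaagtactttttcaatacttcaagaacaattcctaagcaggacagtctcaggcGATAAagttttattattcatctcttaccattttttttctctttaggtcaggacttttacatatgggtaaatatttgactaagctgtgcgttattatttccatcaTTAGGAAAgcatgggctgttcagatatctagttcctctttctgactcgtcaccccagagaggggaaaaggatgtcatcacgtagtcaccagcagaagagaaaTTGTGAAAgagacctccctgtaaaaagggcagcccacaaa
Pear1: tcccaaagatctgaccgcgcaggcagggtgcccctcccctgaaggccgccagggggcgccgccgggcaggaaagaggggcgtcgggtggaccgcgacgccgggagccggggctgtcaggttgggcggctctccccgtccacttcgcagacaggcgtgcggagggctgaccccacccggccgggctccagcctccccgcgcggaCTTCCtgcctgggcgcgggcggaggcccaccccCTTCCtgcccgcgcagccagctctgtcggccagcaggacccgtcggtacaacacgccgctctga
Tmem40, upstream start: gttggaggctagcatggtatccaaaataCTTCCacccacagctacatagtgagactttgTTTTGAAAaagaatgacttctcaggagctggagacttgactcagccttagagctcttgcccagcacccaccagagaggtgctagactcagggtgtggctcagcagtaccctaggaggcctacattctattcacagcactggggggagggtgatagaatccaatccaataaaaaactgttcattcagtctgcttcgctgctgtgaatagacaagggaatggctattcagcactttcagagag
Tmem40, downstream start: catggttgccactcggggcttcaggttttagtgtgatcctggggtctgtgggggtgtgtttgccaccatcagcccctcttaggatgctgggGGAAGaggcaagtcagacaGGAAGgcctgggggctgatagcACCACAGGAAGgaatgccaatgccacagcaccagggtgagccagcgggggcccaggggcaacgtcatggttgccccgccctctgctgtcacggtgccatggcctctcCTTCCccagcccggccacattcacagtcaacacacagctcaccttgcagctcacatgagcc
Pf4: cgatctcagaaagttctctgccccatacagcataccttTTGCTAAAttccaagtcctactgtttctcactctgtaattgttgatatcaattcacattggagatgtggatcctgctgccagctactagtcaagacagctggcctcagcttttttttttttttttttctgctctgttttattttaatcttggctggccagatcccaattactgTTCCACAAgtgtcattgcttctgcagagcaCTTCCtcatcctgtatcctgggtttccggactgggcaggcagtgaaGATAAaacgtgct
Gp9: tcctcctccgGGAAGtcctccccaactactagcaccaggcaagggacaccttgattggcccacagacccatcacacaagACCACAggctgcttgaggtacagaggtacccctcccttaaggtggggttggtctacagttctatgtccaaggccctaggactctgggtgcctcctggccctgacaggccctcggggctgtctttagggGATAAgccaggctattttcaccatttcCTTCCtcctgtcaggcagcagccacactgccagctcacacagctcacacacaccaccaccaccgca
Itga2b: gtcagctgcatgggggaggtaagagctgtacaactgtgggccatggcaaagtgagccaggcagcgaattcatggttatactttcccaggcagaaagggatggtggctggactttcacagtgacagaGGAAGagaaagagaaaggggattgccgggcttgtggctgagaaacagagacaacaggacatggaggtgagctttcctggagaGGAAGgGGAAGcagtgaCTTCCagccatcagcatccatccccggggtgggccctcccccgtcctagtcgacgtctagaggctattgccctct
Plek held 1 GATA match, whose first base lay at -196 counted from the start, and 2 C/EBP matches, at -92 and 11, with 0 ETS and 0 RUNX matches. Pear1 held 2 ETS matches, at -47 and -14, and no others. The upstream Tmem40 window held 1 ETS and 1 C/EBP match, and the downstream window held 4 ETS matches and 1 RUNX match at -118 that directly adjoins an ETS match at -112. Pf4, which was not called, held 2 C/EBP matches as well, at -212 and -39, with 1 GATA and 1 ETS match. Gp9 held 1 GATA, 2 ETS and 1 RUNX match, and Itga2b held 4 ETS matches. Among 32851 promoter windows of the same length, 25.4% held the GATA letters, 71.4% the ETS letters, 16.8% the RUNX letters and 40.7% the C/EBP letters. No match overlapped another, and a match is a description of letters and not a site shown to be bound.

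A wider list of 56 other megakaryocyte and platelet genes, 50 of them measured, included 2 genes called higher and 0 called lower, beside 1.57% and 0.617% of all genes. At an unadjusted p under 0.05 without the fold threshold, 3 were higher and 4 lower. The arrays of the genotypes did not overlap for 2 of the 50 genes in the higher direction, beside 3.51% of all genes, and for 6 in the lower direction, beside 2.46% of all genes. Those 6 were Tbxa2r, Tbxas1, Rasgrp2, Rgs18, Nbeal2 and Bin2. Several gaps were narrow. The highest Cebpa Δ/Δ and lowest Cebpa fl/fl values were 8.42 and 8.43 for Bin2, 8.55 and 8.57 for Tbxas1, and 8.43 and 8.45 for Nbeal2. The exact permutation p was 0.0286 for Tbxa2r, 0.0571 for Rasgrp2 and Rgs18, 0.0857 for Nbeal2 and Bin2, and 0.114 for Tbxas1. Of the 50 differences 19 were above 0 and 31 below, with a median of -0.11. The summed linear intensity of the list was 15945 to 16410 in Cebpa fl/fl and 14378, 16898, 13216 and 15425 in Cebpa Δ/Δ 1 to 4. The sums overlapped only through Cebpa Δ/Δ 2, the highest array. Cebpa Δ/Δ 1, 3 and 4 lay below every Cebpa fl/fl array, with Cebpa Δ/Δ 3 the lowest. Bright probe sets weigh most in such a sum.

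The 2 genes called higher were Cd36 and Gata1, both of which are also expressed outside the megakaryocyte lineage. Cd36, a scavenger receptor of platelets, macrophages and erythroid precursors, measured 3.47, 3.64 and 4.32 in Cebpa fl/fl and 6.74, 5.27, 6.17 and 5.08 in Cebpa Δ/Δ. Its arrays did not overlap and its log2 difference was 2.0 (SE 0.45, exact permutation p = 0.0286, limma adjusted p = 0.453). Every Cebpa fl/fl value of Cd36 lay below percentile 25 of all values, 4.43. With low values raised to that level the difference was 1.39, and Cd36 was still called. Gata1, a transcription factor required in erythroid cells and megakaryocytes, measured 6.21, 6.90 and 6.99 in Cebpa fl/fl and 8.62, 7.58, 8.58 and 8.10 in Cebpa Δ/Δ. It did not overlap either and differed by 1.52 (SE 0.31, exact permutation p = 0.0286, limma adjusted p = 0.412). Klf1, a defining erythroid transcription factor, measured 6.25, 6.92 and 5.80 in Cebpa fl/fl and 8.93, 8.12, 8.91 and 7.77 in Cebpa Δ/Δ. The summed intensity of the 11 erythroid genes was 1057 to 2988 in Cebpa fl/fl and 10255, 5878, 9686 and 6180 in Cebpa Δ/Δ 1 to 4. Cebpa Δ/Δ 1 and 3, the arrays with the highest erythroid sums, also held the highest values of Gata1 and Cd36. The part of erythroid transcripts in these differences was not tested.

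By role, the surface receptors (8 of 11 measured) held 1 gene called higher and a median difference of 0.05. Besides Cd36 and Gp5, the tetraspanin gene Cd9 differed by -0.31 (SE 0.22). Among agonist receptors and eicosanoid enzymes (7 of 8 measured, median -0.09) none was called. Tbxa2r, the thromboxane receptor, measured 6.68, 6.88 and 6.94 in Cebpa fl/fl and 6.38, 6.65, 6.47 and 6.54 in Cebpa Δ/Δ. These arrays did not overlap, at a log2 difference of -0.33 (SE 0.09, exact permutation p = 0.0286) that was under 1.5-fold. Tbxas1, the synthase of thromboxane, measured 8.57, 8.71 and 8.91 in Cebpa fl/fl and 7.83, 8.53, 7.79 and 8.55 in Cebpa Δ/Δ, a difference of -0.56 (SE 0.24). It too was lower in each Cebpa Δ/Δ array, with Cebpa Δ/Δ 1 and 3 well below the other arrays. F2rl3, the thrombin receptor PAR4, differed by -0.22 (SE 0.19).

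Granule cargo (7 of 8 measured) had a median difference of -0.01 and no gene called. Mmrn1, which encodes multimerin 1 and is stored with factor V, measured 7.99, 8.84 and 8.51 in Cebpa fl/fl and 7.75, 8.69, 6.45 and 7.97 in Cebpa Δ/Δ. Cebpa Δ/Δ 3 was far below the rest, the genotypes overlapped, and the log2 difference was -0.74 (SE 0.52). Srgn, the granule proteoglycan serglycin, differed by -0.20 (SE 0.10).

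Signalling and integrin activation genes (9 of 9 measured, median -0.14) held 2 genes below an unadjusted p of 0.05, both lower and both short of 1.5-fold. Rasgrp2, an exchange factor that activates the GTPase Rap1 ahead of αIIbβ3, measured 8.24, 8.07 and 8.42 in Cebpa fl/fl and 7.75, 7.63, 7.53 and 7.98 in Cebpa Δ/Δ. Rgs18, a regulator of G protein signalling in platelets, measured 9.35, 9.01 and 9.21 against 8.44, 8.97, 8.80 and 8.24. Neither gene overlapped between genotypes, with log2 differences of -0.52 (SE 0.13) for Rasgrp2 and -0.58 (SE 0.19) for Rgs18. Rap1b, a Rap1 gene itself, differed by 0.05 (SE 0.06), and Lcp2, the adaptor SLP-76, by 0.05 (SE 0.25).

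Genes of the cytoskeleton and platelet production (9 of 9 measured) had a median of -0.17. Nbeal2, needed to form alpha granules, measured 8.45, 8.70 and 8.90 in Cebpa fl/fl and 8.09, 8.42, 7.86 and 8.43 in Cebpa Δ/Δ. Its arrays did not overlap, and its difference of -0.48 (SE 0.18) was under 1.5-fold. Bin2, which encodes a membrane-shaping adaptor of blood cells, did not overlap either and differed by -0.11 (SE 0.06). Among the 10 measured transcription factors the median was -0.11. Next to Gata1, Gfi1b, a transcriptional repressor that acts within the erythroid and megakaryocyte lineages, measured 9.31, 9.71 and 9.22 in Cebpa fl/fl and 10.10, 9.92, 9.73 and 9.67 in Cebpa Δ/Δ. Cebpa fl/fl 2 lay above the lowest Cebpa Δ/Δ array, and the log2 difference was 0.44 (SE 0.15). Meis1 and Gata2, both HSC regulators, differed by -0.32 (SE 0.22) and -0.29 (SE 0.23). Tbxa2r, Rasgrp2, Rgs18 and Gfi1b were named after their values were seen.

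**Figure D3:**
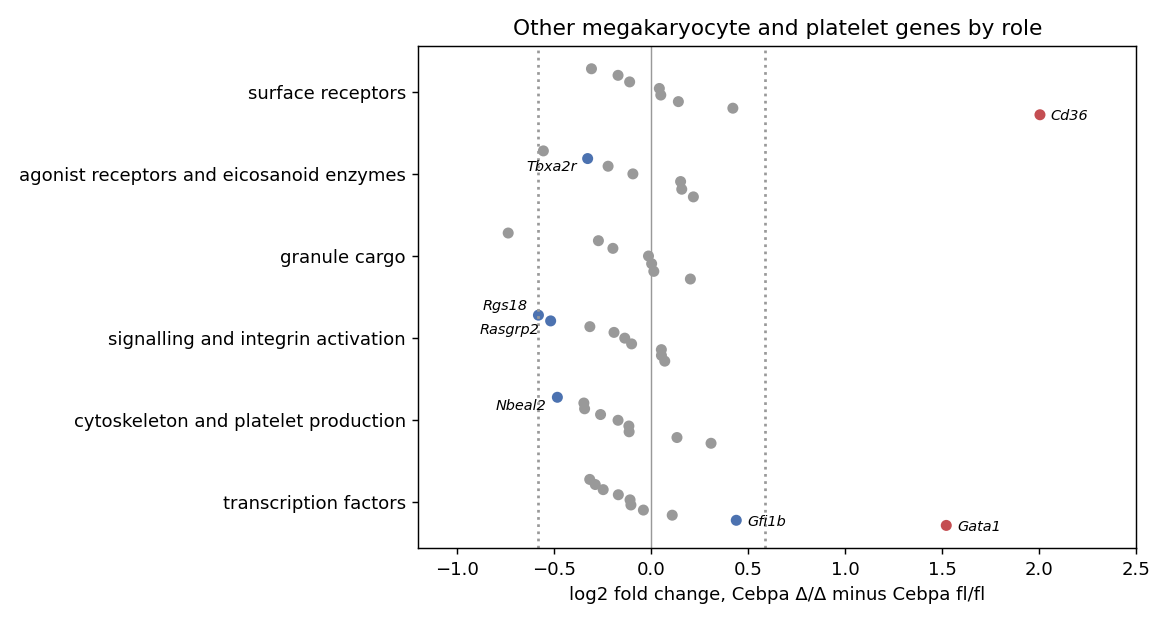
Log2 fold change (Cebpa Δ/Δ minus Cebpa fl/fl) of the 50 other measured genes, grouped by role, with dotted lines at 1.5-fold, red for called genes, blue for genes under an unadjusted limma p of 0.05 but below 1.5-fold, and grey for the others. Cd36 and Gata1 are the called genes, and the 4 lower blue points are Tbxa2r, Rasgrp2, Rgs18 and Nbeal2.

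Genes that mark platelet-biased or aged HSCs, apart from Vwf, were measured for 6 of 7 names and 0 were called (limma, 0 also at an unadjusted p under 0.05). Clu, the chaperone clusterin, was 6.60, 7.45 and 7.54 in Cebpa fl/fl and 7.56, 8.41, 7.54 and 8.27 in Cebpa Δ/Δ. The arrays overlapped at about 7.54 and the log2 difference was 0.75 (SE 0.33). Clu was called higher under 4 of 17 alternatives, at 0.74 with array medians subtracted, 0.73 after quantile normalization, 0.75 among genes above the median level and 0.88 without Cebpa Δ/Δ 3. The others differed by 0.00 for Aldh1a1 (SE 0.11), -0.37 for Nupr1 (SE 0.24), 0.26 for Sult1a1 (SE 0.29), -0.39 for Plscr2 (SE 0.24) and 0.11 for Ehd3 (SE 0.13). Nupr1 was called lower without Cebpa fl/fl 3 (-0.59).

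HSC genes and antigens of the sort were checked because the composition of the sorted cells bears on every value above. Cd48, whose product was absent by the gate, measured 4.82, 5.61 and 4.62 in Cebpa fl/fl and 8.15, 7.70, 8.82 and 6.40 in Cebpa Δ/Δ, a called difference of 2.75 (SE 0.58). With all arrays and the chosen probe sets it was the only 1 of 8 measured genes of that list to be called. Slamf1, which encodes CD150, measured 7.91, 8.07 and 7.95 against 7.73, 7.95, 6.92 and 8.15, with Cebpa Δ/Δ 3 the lowest. Hlf, a transcription factor enriched in HSCs, measured 10.68, 10.50 and 10.73 against 9.89, 10.62, 9.66 and 10.35, and Mecom, another, measured 8.64, 8.75 and 8.65 against 8.13, 8.72, 7.41 and 8.84. In both genes Cebpa Δ/Δ 1 and 3 lay lowest, as they did for Pear1, Tmem40, Tbxas1 and Nbeal2. The differences were -0.29 for Slamf1 (SE 0.29), -0.51 for Hlf (SE 0.23) and -0.41 for Mecom (SE 0.34). Mecom was called lower with the mean of its probe sets (-0.60), and Hlf without Cebpa Δ/Δ 2 (-0.67). Kit (-0.34), Procr (-0.26), Fgd5 (-0.29) and Ctnnal1 (-0.39) were not called. The summed intensity of the list was 4171 to 4533 in Cebpa fl/fl and 3206, 4417, 2909 and 4123 in Cebpa Δ/Δ 1 to 4. The lineage antibodies of the sort did not include a megakaryocyte or platelet antigen. The part of sort composition in the differences of Pear1, Tmem40 and Plek was not tested.

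The lists of other cell types moved in different directions. The lineage antibodies of the study (B220, CD3, CD11b, Gr1 and Ter119) and its lysis of red cells would remove many lymphoid, myeloid and late erythroid cells. Of the neutrophil genes, S100a8 differed by -5.20 (SE 0.77) and S100a9 by -5.24 (SE 0.88), and the summed intensity of the list was 7427 to 17336 in Cebpa fl/fl and 743 to 1470 in Cebpa Δ/Δ. In the mast cell and basophil list 1 of 8 genes was called, Cpa3, which was higher by 2.66 (SE 0.50).

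**Figure D4:**
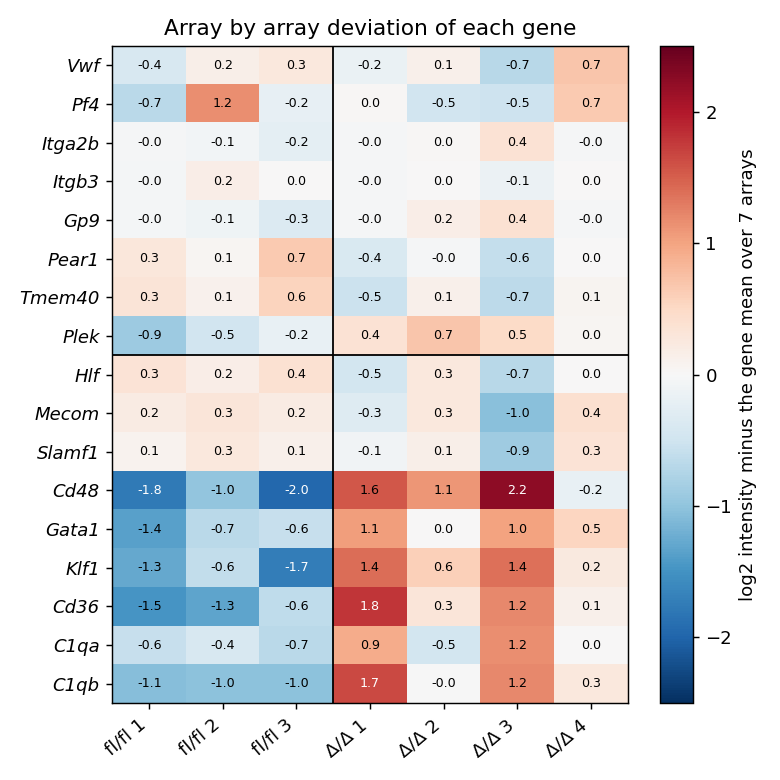
Deviation of each gene from its own mean over the 7 arrays (log2 intensity, colour and printed value), with arrays in columns and the 8 measured genes above the horizontal line. Pear1 and Tmem40 are lowest in Cebpa Δ/Δ 1 and 3, where Hlf and Mecom are also lowest and Klf1 and C1qb are highest, whereas Vwf and Pf4 are highest in different arrays.

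Likeness was described for Vwf and Plek over the 7 arrays, as the root mean square difference between mean-centred log2 values, among 9968 other genes above the median level. Closest to Vwf, whose own spread on that scale was 0.42, were Hoxb5 (0.0811), Agpat3 (0.0992) and Lbp (0.108). Hoxb5, a homeobox gene known to mark long-term HSCs, measured 6.93, 7.35 and 7.62 in Cebpa fl/fl and 6.96, 7.41, 6.60 and 7.84 in Cebpa Δ/Δ. It was thus lowest in Cebpa Δ/Δ 3 and highest in Cebpa Δ/Δ 4, as Vwf was. Closest to Plek, with a spread of 0.52, were Pdgfrb (0.141) and the interferon-induced genes Ifit1 (0.146) and Ifit3 (0.181). Centring over all 7 arrays keeps the genotype difference, so genes with a similar difference rank as close. That difference was 0.92 for Plek, 0.945 for Pdgfrb, 0.91 for Ifit1 and 0.77 for Ifit3. Such likenesses are descriptions over 7 arrays that share preparation and normalization, without a test.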

How the data were processed

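RNA from HSCs of 3 control mice (Cebpa fl/fl) and 4 with Mx1Cre (Cebpa Δ/Δ) was amplified with the NuGEN Ovation Pico WTA kit. The deposited values are linear intensity values, which the authors computed with RMA and a mean summary of probe sets in Partek Genomics Suite (RMA and affy in the submitters' processing notes). Their genome build is not given in the sources used here. RMA forces a common distribution on the arrays and so hides any change in the RNA content of a cell. The planned design assumed log2 values, and log2 was taken here without a pseudocount.

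Of 35556 probe sets, 21789 were annotated to 1 gene, 1621 to several and 12146 were unnamed. Symbols of 21698 were updated by Entrez number (RefSeq, GRCm38.p6). For the 999 genes with several probe sets the one with the highest mean was used, which left 19938 genes. 0 columns were unused.

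limma 3.58.1 (lmFit, eBayes) in R 4.3.3 gave the difference between genotypes, with genotype as the only term and Benjamini-Hochberg adjustment over all genes, beside an exact two-sided permutation test over 35 splits. The study states a p of 0.05 and 1.5-fold but names no test. The procedure was tested on simulated data. Precision is limited by the number of arrays.

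The genes, lists and tests were chosen with earlier results of these data known. Named genes were the 9 genes of the set, Cebpa, called genes of the wider list, the 2 brightest of each role, Gp1ba, Gp5 and Gata1 (1 further gene of the rule is not reported here), all HSC and platelet-biased HSC genes, the first 2 of each list of another cell type, and the 3 genes most like Vwf and Plek. Alternatives changed the probe set rule, filter, floor, scaling, variance model, array weights, replicate block, arrays and features tested.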

Additional observations from a re-analysis of the deposited data

Results flagged for a closer look

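Of 57 groups of 4 arrays examined for 1 array far from the rest of its genotype, 4 held one. Chance alone marks about 1 in 20 where values hold no ties, and the ties in these values make that rate inexact. Itga2b was 8.41 in Cebpa Δ/Δ 3 and 8.02 to 8.07 in the other Cebpa Δ/Δ arrays. Without that array its difference from Cebpa fl/fl was 0.10. Aldh1a1 was 8.82 in Cebpa Δ/Δ 4 and 9.16 to 9.21 in the others. Kdr was 4.34 in Cebpa Δ/Δ 3 and 4.70 in the others. Cpa3 was 7.10 in Cebpa Δ/Δ 4 and 8.57 to 8.87 in the others.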

How the results depend on the processing

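Under 17 alternatives, 964 values of 57 named genes were recomputed, beside the counts of calls. Of these 895 kept their direction and side of the threshold, 25 changed sign, 19 lost the call and 25 gained one, and the causes were not tested. Plek was called higher under each alternative. Calls lower in the set of 9 genes numbered 1 with low values raised to percentile 25, and 0 with array weights, with the replicate block and without both Cebpa fl/fl 1 and Cebpa Δ/Δ 3. Leaving out 1 array gave 0 to 2. The filter to genes above the median level left out Cd36. With it the wider list had 1 gene called higher, Gata1 (2 to 3 when 1 array was left out). It had 1 called lower after subtracting array medians or quantile normalization, Rgs18 in both, and 2 with the replicate block, Tbxas1 and Rasgrp2, with 0 to 2 when 1 array was left out. Over all genes 169 were called higher without Cebpa fl/fl 1 and Cebpa Δ/Δ 3 (223 to 404 when 1 array was left out), and with every probe set tested 499 were called lower and 469 higher (lower calls ranged from 93 to 157 when 1 array was left out).

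Hoxb5 was -0.31 to 0.10 when 1 array was left out (main -0.10), Agpat3 -0.22 to 0.14 (main -0.05) and Lbp -0.39 to 0.0158 (main -0.19), with each highest value without Cebpa Δ/Δ 3. Ifit1 lost its call without Cebpa fl/fl 1 and Cebpa Δ/Δ 3 together, as did Ifit3, which also lost it without Cebpa fl/fl 1 or Cebpa fl/fl 2.

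Other values that changed sign were small apart from Pf4, which was 0.35 without Cebpa fl/fl 2 (-0.56 to 0.35 when 1 array was left out). Vwf was 0.05, 0.11, 0.04 and 0.21 without Cebpa fl/fl 2, Cebpa fl/fl 3, Cebpa Δ/Δ 1 or Cebpa Δ/Δ 3 (-0.25 to 0.21 over single arrays), and 0.0073 without Cebpa fl/fl 1 and Cebpa Δ/Δ 3 together. Rap1b was -0.0027 without Cebpa fl/fl 2 (highest single-array value 0.10). Lcp2 was -0.026 with the replicate block, and -0.14 to 0.22 when 1 array was left out, below 0 without Cebpa fl/fl 1, Cebpa Δ/Δ 2 or Cebpa Δ/Δ 4. Aldh1a1 was 0.089 with the block, and -0.0584 to 0.089 when 1 array was left out, above 0 without Cebpa fl/fl 2, Cebpa fl/fl 3 or Cebpa Δ/Δ 4. Ctnnal1 was 0.0663 without Cebpa fl/fl 1 and Cebpa Δ/Δ 3. Mcpt8 was -0.011 with low values raised, -0.0407 without Cebpa fl/fl 1 and Cebpa Δ/Δ 3, and -0.0369 without Cebpa fl/fl 3 (highest single-array value 0.35).

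The correlations of deviations between arrays of the same replicate number were weak, at -0.02, 0.10 and -0.18. The labels do not say whether a number is shared by littermates or a batch, and these correlations cannot exclude it. With the replicate block 0 of the set were called lower and 1 higher. The number of arrays and the spread between them limit what could be detected, most for Vwf and Pf4.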
